A study of Mus musculus with 4 samples.

Results

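Cytochrome P450 (Cyp) genes were followed in embryonic fibroblasts of mice that lack p53, at day 5 after reprogramming factors had been delivered by retrovirus. Members were the array probes whose transcript accession belongs to a RefSeq gene with a Cyp family, subfamily and gene number in its symbol; the rule uses no measured value, but the family was picked with earlier results of these data known. This gave 80 genes on 106 probes, of 41174 probes on the array. Of these genes, 33 were bright enough to be tested, of 19174 genes tested in all. The comparison was between cells that received OSK, the factors Oct4, Sox2 and Klf4 (n = 2), and cells that received OSK+Glis1, the same factors together with the zinc finger factor Glis1 (n = 2). All 4 samples carried the p53-null genotype, grew in serum-containing medium and were read at day 5, and no untransduced sample was part of the comparison, so every value here is relative to OSK cells. The study's title places the comparison within the question of how Glis1 promotes direct reprogramming.

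P450 enzymes are haem proteins that insert an oxygen atom into a lipid, hormone or foreign compound, with electrons passed on by reductase partners. Some members act at fixed points of body chemistry, where they make steroid hormones, open the route from cholesterol to bile acids, activate vitamin D or destroy retinoic acid. Others oxidise fatty acids and eicosanoids, and a large group that is best known from liver, gut and lung clears drugs and pollutants. Many are switched on by receptors that sense their substrates, such as the aryl hydrocarbon receptor for the Cyp1 enzymes and the retinoic acid receptors for the Cyp26 enzymes.

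RNA was read on one-colour Agilent arrays that all lay on 1 slide. A level is the log2 of a probe's signal minus the log2 of that array's 75th percentile of signal, so that 0 is the 75th percentile and -1 is a signal lower by a factor of 2. Levels of a gene are compared only for the same probe across arrays, since probes differ in brightness. The summed signals of marker lists given below add the brightest probe of each gene, so bright probes weigh most in them. Between 59.9% and 65.2% of spots were well above background on the 4 arrays, and none was saturated. Correlations of levels over the 19174 genes tested were 0.987 and 0.989 within the groups and 0.935 to 0.945 between them. The OSK samples were labelled as embryonic fibroblasts and the OSK+Glis1 samples as induced pluripotent cells from them. All 8 fibroblast markers examined were well above background on all 4 arrays, with Col1a1 and Thy1 lower in OSK+Glis1. Of 6 measured pluripotency genes, which were listed after the data had been seen, Pou5f1 (Oct4), which all samples also received by retrovirus, and Esrrb were higher in OSK+Glis1 and the other 4 did not pass the test. The Glis1 probe read -3.26 and -3.34 in OSK and -3.28 and -3.73 in OSK+Glis1 (limma, adjusted p = 0.598), so it gave no check of the labels and all directions refer to the groups as labelled. No label tells whether replicate samples were grown and infected separately. The p-values given here then refer to variation among these particular samples, part or all of which could be technical. In bulk RNA, fewer cells of a type and less RNA per cell cannot be told apart.

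Of the 33 tested P450 genes, 8 were lower and 1 was higher in OSK+Glis1 than in OSK (limma, Benjamini-Hochberg adjusted p under 0.05 over all 19174 genes). Over all genes tested, 8.17% were called lower and 6.06% higher. The lower genes were the steroid enzymes Cyp11a1 and Cyp7b1, the retinoic acid enzyme Cyp26b1, the fatty acid enzymes Cyp2j6, Cyp2j11, Cyp2j13 and Cyp4f39, and the pollutant-oxidising Cyp1a1. The gene called higher was Cyp2s1. The median difference, OSK+Glis1 minus OSK on the log2 scale, was -0.25 over the 33 members and 0.05 over all genes tested. In 14 members both OSK+Glis1 arrays lay below both OSK arrays, which held for 26.6% of all genes tested, and in 6 members both lay above, which held for 33.4% of all genes tested. Of the 33, 26 were well above background on all 4 arrays, 4 had been admitted to the test by the OSK arrays alone and 3 by the OSK+Glis1 arrays alone. Of the called genes, 6 were well above background on all 4 arrays. The others, Cyp11a1, Cyp2j11 and Cyp4f39, were admitted by the OSK arrays alone, the group in which they were higher. With no filter, all 80 members entered the fit, and 6 were called lower and 1 higher, against 2.95% and 1.72% of all genes.

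**Figure D1:**
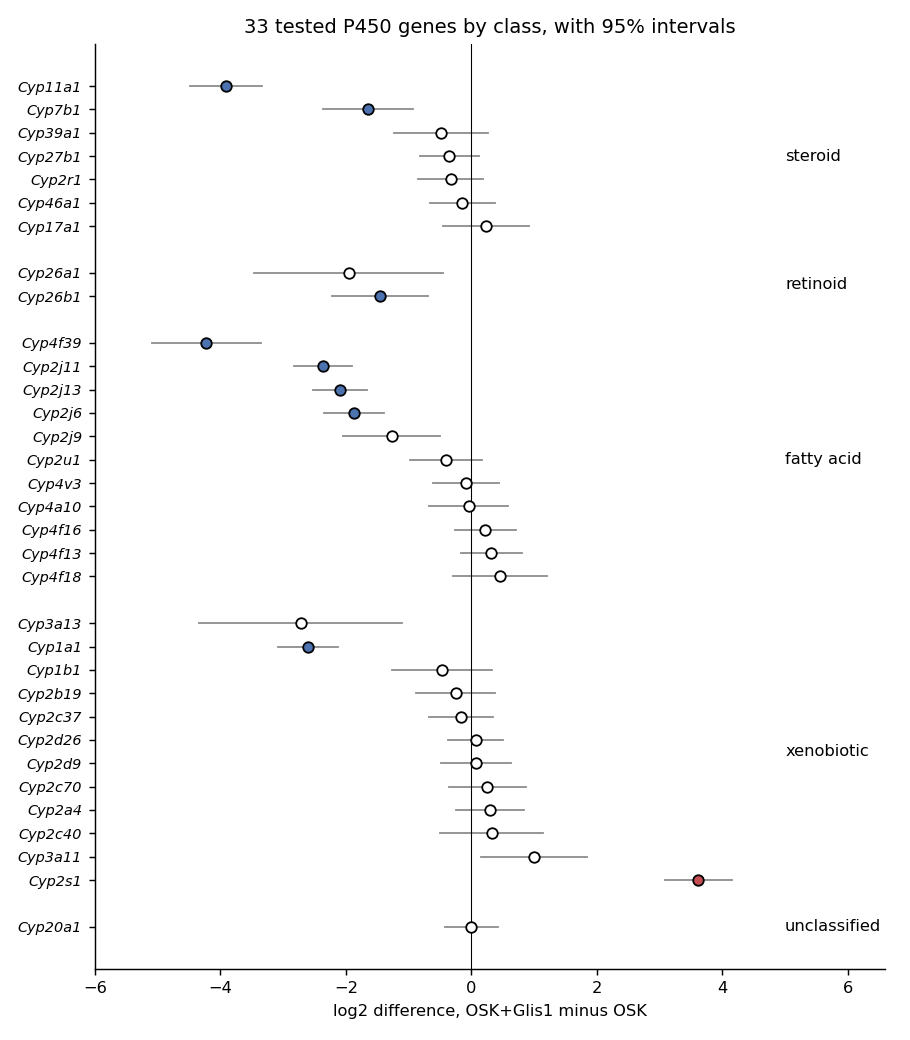
Log2 difference, OSK+Glis1 minus OSK, of the 33 tested P450 genes in rows, grouped by substrate class, with the 95% interval of the limma fit as a horizontal line (n = 2 arrays per group). Filled points passed the test, blue for lower and red for higher; the 8 blue points lie between -4.22 and -1.46, and the red point, Cyp2s1, at 3.61.

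The steroid class held 14 genes, of which 7 were tested and 2 were lower, beside 8.17% of all genes tested. Cyp11a1, which cleaves the side chain of cholesterol in the mitochondrion and so begins steroid hormone synthesis, had levels of -3.90 and -3.44 in OSK and -7.65 and -7.52 in OSK+Glis1. Both OSK+Glis1 arrays were far below both OSK arrays and were not well above background, so Cyp11a1 was admitted to the test by the OSK arrays alone. With the dim arrays set at the lowest signal that counted as well above background there, Cyp11a1 was at least 5.97-fold lower in OSK+Glis1 (limma, adjusted p = 0.00231). That bound belongs to this scaling: the fitted difference of -3.91 became -1.84 under normexp background correction, where the call was lost, and -0.92 under normexp with outlying local backgrounds replaced (adjusted p = 0.0209). Its other probe, at -4.03 and -3.63 against -8.25 and -8.32, lay on the same side.

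Cyp7b1, which hydroxylates oxysterols and some steroid hormones, read 0.14 and 0.52 in OSK and -1.02 and -1.61 in OSK+Glis1. The groups did not overlap and both were well above background. It was 3.12-fold lower, with a log2 difference of -1.64 ± 0.28 (SE; limma, adjusted p = 0.0230). This call was lost with either OSK array left out (adjusted p = 0.0780 without OSK 1 and 0.118 without OSK 2) and without OSK+Glis1 2 (0.0693).

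The other 5 tested steroid enzymes did not pass the test. Cyp17a1, the enzyme at the branch to androgens, read -2.37 and -1.92 in OSK and -1.68 and -2.15 in OSK+Glis1, and the groups overlapped. Its 95% interval of the log2 difference ran from -0.45 to 0.92. Cyp39a1, which acts on a brain-derived oxysterol, read 1.59 and 0.91 against 0.62 and 0.91, with a difference of -0.48 and an interval of -1.23 to 0.27. Cyp46a1, which makes that oxysterol in neurons, differed by -0.14 (interval -0.66 to 0.38). The vitamin D enzymes Cyp27b1 and Cyp2r1, which activate the vitamin, differed by -0.35 (-0.82 to 0.12) and -0.33 (-0.85 to 0.19). For both vitamin D enzymes the OSK+Glis1 arrays lay below the OSK arrays, and neither difference passed the test. Cyp19a1, the aromatase that makes oestrogens, and Cyp7a1, the enzyme that starts the classical bile acid route, were well above background on no array, as were Cyp8b1, Cyp11b2, Cyp21a1, Cyp24a1 and Cyp27a1.

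Of 10 tested genes that work beside the steroid enzymes, 0 were called higher and 0 lower by limma, with 2 at an unadjusted p under 0.05. The nearest to the threshold was the cholesterol transporter Stard3 (0.67, limma adjusted p = 0.0638), which was called higher when arrays were centred on their median or taken from the deposited log2 values. Star, which brings cholesterol to Cyp11a1, read -4.05 and -4.56 in OSK and -4.26 and -3.89 in OSK+Glis1, with overlapping groups. Nr5a1, the nuclear receptor that drives Cyp11a1 in steroid-making cells, read -4.73 and -4.57 against -4.65 and -4.52. Of 7 measured markers of steroid-making cells, Star and Nr5a1 were well above background on all 4 arrays, Hsd3b6 and Lhcgr on none, and Fshr was at least 1.48-fold lower (limma, adjusted p = 0.0128). Their summed signal, relative to the 75th percentile, was 0.153 and 0.174 in OSK and 0.136 and 0.152 in OSK+Glis1, and their part in the Cyp11a1 difference was not tested. Of 20 tested genes of sterol synthesis, the supply of cholesterol, 0 were called in each direction by limma and 4 had an unadjusted p under 0.05. The nearest to the threshold was Insig1 (-0.65, adjusted p = 0.0671 by limma), and the median difference was -0.22.

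**Figure D2:**
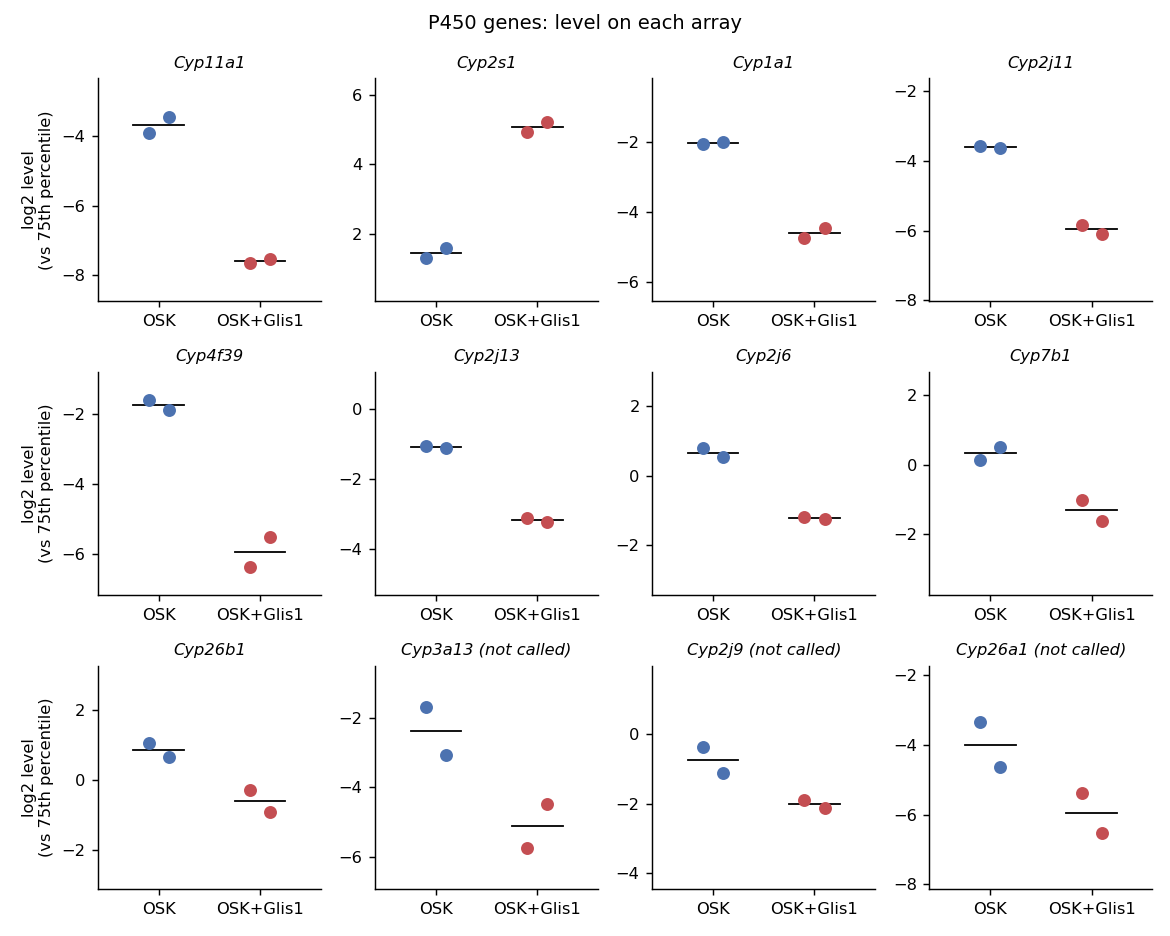
Level of 12 P450 genes on each array (log2 signal relative to the array's 75th percentile), OSK in blue and OSK+Glis1 in red, with the group mean as a line and n = 2 arrays per group; panels differ in their axis range. In the 9 called genes and in Cyp3a13, Cyp2j9 and Cyp26a1, which were not called, the groups do not overlap; within a group the arrays can lie apart, as in the OSK levels of Cyp3a13, -1.69 and -3.08.

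Retinoic acid is broken down by the Cyp26 enzymes. Both measured members were tested. Cyp26b1, which protects developing tissues from retinoic acid, read 1.07 and 0.65 in OSK and -0.28 and -0.92 in OSK+Glis1. The groups did not overlap, and Cyp26b1 was 2.75-fold lower, with a log2 difference of -1.46 ± 0.29 (SE; limma, adjusted p = 0.0377). The call was lost without OSK 1 (adjusted p = 0.148), without OSK 2 (0.106) and without OSK+Glis1 2 (0.113). Cyp26a1, the member that retinoic acid induces most directly, read -3.34 and -4.64 in OSK and -5.38 and -6.51 in OSK+Glis1, where 1 of the 2 arrays was well above background. The groups did not overlap, but the arrays within each group lay more than 1 log2 unit apart, and the difference of -1.96 ± 0.58 did not pass the test (limma, adjusted p = 0.0985).

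The 180 bases before the transcription start of Cyp26a1, Cyp26b1 and Rarb, a receptor gene that retinoic acid is known to switch on, are printed here because the first and the last hold the textbook form of a retinoic acid response element. They come from RefSeq (GRCm38.p6), written along the gene and ending at the base before the start, with the repeats in capitals. Promoter entries matched 59 of the 80 members.
Cyp26a1, chr19:37697628-37697807, plus strand: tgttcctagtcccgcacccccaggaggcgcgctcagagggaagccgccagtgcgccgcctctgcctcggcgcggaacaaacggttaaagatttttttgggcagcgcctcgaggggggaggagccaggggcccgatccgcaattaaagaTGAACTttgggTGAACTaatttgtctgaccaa
Cyp26b1, chr6:84593811-84593990, minus strand: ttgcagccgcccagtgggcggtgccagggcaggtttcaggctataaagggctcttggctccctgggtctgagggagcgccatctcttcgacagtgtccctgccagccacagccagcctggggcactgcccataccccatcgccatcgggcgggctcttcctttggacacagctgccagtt
Rarb, chr14:16575477-16575656, minus strand: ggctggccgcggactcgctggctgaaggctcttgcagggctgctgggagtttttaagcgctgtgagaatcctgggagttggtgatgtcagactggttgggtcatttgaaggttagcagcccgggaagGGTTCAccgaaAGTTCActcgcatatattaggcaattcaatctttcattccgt
A pair of AGTTCA letters with 5 bases between them, searched on both strands, stood at -32 to -16 of Cyp26a1, on the strand opposite the gene, so that it reads TGAACT here. That exact pair occurred in 8 of 32851 RefSeq promoters of 300 bases (0.0244%), which run from 250 bases before the start to 50 after it. In Rarb, GGTTCA, 5 bases and AGTTCA stood at -53 to -37, a pair that 2 of the promoters held (0.00609%). Neither pair of letters was in the Cyp26b1 window. Only these exact pairs were searched, and no looser form or other spacing of the element. The low shares therefore do not show how rare such elements are, nor that Cyp26b1 lacks one. These matches describe the sequences and were not tied to the levels by any measurement here.

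The retinoid genes around Cyp26 moved in both directions, with a median difference of -0.18. Of 14 tested, 5 were lower and 3 higher, beside 8.17% and 6.06% of all genes. Aldh1a3, which makes retinoic acid, read 0.71 and -0.18 in OSK and -4.08 and -4.29 in OSK+Glis1, a 21.9-fold lower value (limma, adjusted p = 0.00335). Aldh1a1, which also makes retinoic acid, went the other way, from -0.40 and -1.19 to 1.34 and 1.39. This rise of 4.47-fold passed the test (adjusted p = 0.0139 by limma), but not with either OSK+Glis1 array left out. A further such enzyme, Aldh1a2, read -3.02 and -4.00 in OSK and -5.36 and -4.66 in OSK+Glis1. Its groups did not overlap, but the difference of -1.50 did not pass the test (limma, adjusted p = 0.0867). Crabp2, which hands retinoic acid to its receptor, fell by 2.12 on the log2 scale (limma, adjusted p = 0.00488). Rdh10 and Dhrs3, which interconvert retinol and retinal, and the receptor gene Rarb were lower by -1.53, -1.45 and -1.55, and the receptor gene Rara was higher by 1.83. Both receptor genes were dim: Rarb was well above background on 1 of 2 OSK+Glis1 arrays and Rara on 1 of 2 OSK arrays. Where all 4 arrays had to be well above background, 4 genes of the list were lower and 2 higher. The count of lower genes in this list was 2 without OSK 1, 3 without OSK 2, 4 without OSK+Glis1 1 and 3 without OSK+Glis1 2.

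The fatty acid class held 21 genes, of which 11 were tested and 4 were lower, beside 8.17% of all genes tested. Of these 4, 3 were from the Cyp2j subfamily, whose enzymes epoxidise arachidonic acid. Among the 4, Cyp2j11 and Cyp4f39 were admitted to the test by the OSK arrays alone. Cyp2j6 read 0.79 and 0.54 in OSK and -1.18 and -1.24 in OSK+Glis1. The OSK+Glis1 arrays lay close together and well below OSK, and Cyp2j6 was 3.66-fold lower (difference -1.87 ± 0.18 SE; limma, adjusted p = 0.00562). Its other probe lay at -2.81 and -3.04 against -5.43 and -4.92, on the same side. Cyp2j11 read -3.57 and -3.63 in OSK and -5.84 and -6.09 in OSK+Glis1, where 1 of the 2 arrays was well above background. It was 5.15-fold lower (-2.36 ± 0.18 SE; limma, adjusted p = 0.00346), and its other probe was well above background on no array.

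Cyp2j13 was measured by 3 probes. The brightest read -1.05 and -1.11 in OSK and -3.11 and -3.22 in OSK+Glis1, 4.25-fold lower (-2.09 ± 0.17 SE; limma, adjusted p = 0.00381). The other probes were lower as well, but by different amounts. One went from -0.98 and -1.41 to -6.53 and -5.96, where it was not well above background. The other, which was well above background on 1 OSK array only, went from -5.50 and -5.40 to -7.85 and -6.82. The probes therefore agree in direction and not in size.

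Cyp2j9 read -0.37 and -1.12 in OSK and -1.91 and -2.12 in OSK+Glis1. The groups did not overlap, and the difference of -1.27 ± 0.30 lay just short of the threshold (limma, adjusted p = 0.0569), passing it without OSK 2 (0.0478). Cyp2j5, known from kidney and liver, was well above background on no array. These genes lie side by side on chromosome 4, in the order Cyp2j13, Cyp2j12, Cyp2j11, Cyp2j8, Cyp2j6, Cyp2j9, Cyp2j5, with no matched probe for Cyp2j12 and Cyp2j8. All 4 tested neighbours were lower in every OSK+Glis1 array than in every OSK array, a separation that held for 26.6% of all genes tested. The gene next to Cyp2j13, Hook1, which codes for a microtubule adaptor of endosomes, differed by -0.56 and was not called (limma, adjusted p = 0.145). Its groups did not overlap either, at -3.62 and -3.77 in OSK and -4.41 and -4.09 in OSK+Glis1. Fggy, examined with Hook1 as a gene outside the Cyp2j row, went the other way. It was higher by 0.80, and its groups did not overlap (limma, adjusted p = 0.0448).

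**Figure D3:**
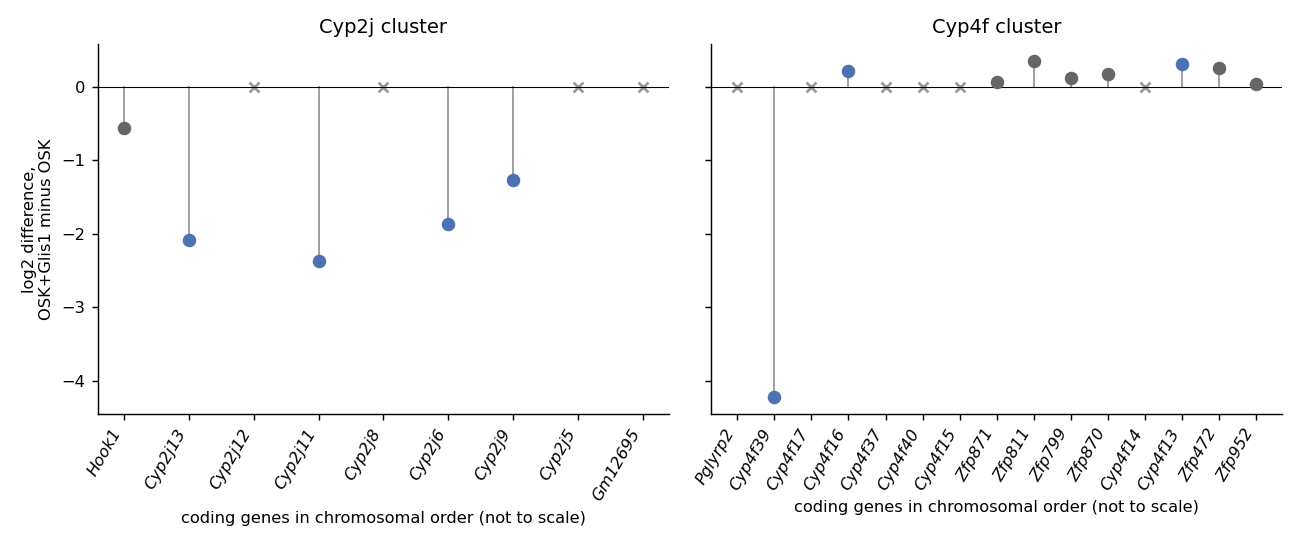
Log2 difference, OSK+Glis1 minus OSK (n = 2 arrays per group), of the coding genes in and next to the Cyp2j cluster (left, chromosome 4) and the Cyp4f cluster (right, chromosome 17), in RefSeq order and not to scale. Blue points are P450 genes, grey points are other genes and crosses are genes not tested; the 4 Cyp2j points lie between -2.36 and -1.27, whereas in the Cyp4f cluster Cyp4f39 lies at -4.22 and Cyp4f16 and Cyp4f13 at 0.22 and 0.32.

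Promoters of these 4 neighbours, of which 3 were called lower, were set side by side. Over the 300-base RefSeq windows, pairs of them were 48.2% to 52.99% identical in a global alignment with gaps. No unrelated promoters were aligned, so these values do not show likeness beyond that of any pair of windows. The windows of Cyp2j13 and Cyp2j11, the lower genes at the Hook1 end of the row, are shown over the 180 bases before the start, along the gene, with capitals for GCGTG.
Cyp2j13, chr4:96077541-96077720, minus strand: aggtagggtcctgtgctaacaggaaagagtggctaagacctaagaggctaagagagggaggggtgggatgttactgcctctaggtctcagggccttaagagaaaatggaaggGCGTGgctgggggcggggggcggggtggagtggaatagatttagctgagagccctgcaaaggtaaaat
Cyp2j11, chr4:96348681-96348860, minus strand: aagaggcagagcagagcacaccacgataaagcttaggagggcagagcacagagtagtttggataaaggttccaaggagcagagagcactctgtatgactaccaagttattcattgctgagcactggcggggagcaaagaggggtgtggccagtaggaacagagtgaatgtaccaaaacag
GCGTG, the core of the site bound by the aryl hydrocarbon receptor, stood at -68 of Cyp2j13 and at -171 of Cyp2j9, and was in neither the Cyp2j11 nor the Cyp2j6 window. It is a short and common word, found on either strand in 32.4% of all RefSeq promoters of this length. Probe sequences were not used here, so it was not tested whether a probe also binds the RNA of a close relative, in the Cyp2j cluster or among the Cyp2a, Cyp2c, Cyp2d, Cyp3a and Cyp4a genes.

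Cyp4f39, which hydroxylates the very long fatty acids of skin ceramides, read -1.59 and -1.87 in OSK and -6.39 and -5.52 in OSK+Glis1, where 1 of the 2 arrays was well above background. Both OSK+Glis1 arrays lay far below both OSK arrays. It was 18.7-fold lower (-4.22 ± 0.33 SE; limma, adjusted p = 0.00379), and the difference was -2.31 under normexp with outlying local backgrounds replaced. Its tested relatives in the Cyp4f row of chromosome 17 did not pass the test. Cyp4f16 read -0.07 and 0.24 against 0.33 and 0.29 (95% interval of the difference -0.27 to 0.71). Cyp4f13 read -0.49 and -0.23 against 0.03 and -0.11 (-0.16 to 0.80). Of 10 keratinocyte markers, a list drawn up after the data had been seen, 8 were tested, and Krt14, Tgm1 and Trp63 were lower and Krt15 higher. Their differences were -3.11, -4.49, -1.40 and 3.09 in that order. The summed signal of the list was 20.9 and 23.0 in OSK and 17.03 and 18.4 in OSK+Glis1. Most of that sum came from Sfn, which was not called, at 4.08 and 4.27 in OSK and 3.92 and 4.10 in OSK+Glis1. The sum therefore says little about the other markers. Ivl was well above background on no array, and the part of these markers in the Cyp4f39 difference was not tested.

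The remaining fatty acid hydroxylases did not pass the test. Cyp4f18, which inactivates leukotrienes in leukocytes, read -4.30 and -3.56 in OSK and -3.43 and -3.53 in OSK+Glis1 (95% interval of the difference -0.30 to 1.20). Cyp2u1, a brain and thymus enzyme for long fatty acids, read -3.64 and -4.03 against -4.11 and -4.37 (-0.98 to 0.17). Cyp4v3 (-0.61 to 0.44) and Cyp4a10 (-0.68 to 0.59), which hydroxylate the ends of fatty acid chains, had overlapping groups and differences of -0.08 and -0.04.

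A further list held enzymes that compete with the Cyp2j and Cyp4 members for arachidonic acid, or act on their products. Of 12 tested, 7 were lower and 1 was higher, beside 8.17% and 6.06% of all genes. The median difference was -1.52. Ptgs2, the inducible cyclooxygenase, read -0.48 and -0.12 in OSK and -3.998 and -4.09 in OSK+Glis1, 13.4-fold lower (limma, adjusted p = 0.00231). Ephx1, an epoxide hydrolase that opens epoxides made by P450 enzymes, read 1.37 and 1.65 against -1.06 and -1.01, 5.84-fold lower (limma, adjusted p = 0.00324). The other epoxide hydrolase gene of the list, Ephx2, differed by 0.29 and was not called (limma, adjusted p = 0.322). Ptgs1, the constitutive cyclooxygenase, fell by 2.09 on the log2 scale, and the lipoxygenase gene Alox15 was at least 2.92-fold lower, with no OSK+Glis1 array well above background (limma, adjusted p = 0.00952 and 0.00531). Under normexp with outlying local backgrounds replaced, Alox15 differed by -0.67 and lost its call (adjusted p = 0.0918). The other lower genes were Pla2g4a, which frees arachidonic acid, Ptgds and Hpgd, and Alox5ap, the partner of the leukotriene-making lipoxygenase, was higher by 1.02. With 1 array left out the lower count was 4 without OSK 1 and 5 without each of the others, and the higher count was 0.

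The xenobiotic class was the largest, with 42 genes, but only 12 could be tested. Of these, 1 was lower and 1 higher, beside 8.17% and 6.06% of all genes. Cyp2s1, an enzyme of lung, gut and skin epithelia that also acts on retinoids and eicosanoids, read 1.32 and 1.59 in OSK and 4.92 and 5.21 in OSK+Glis1. Both OSK+Glis1 arrays stood far above both OSK arrays. It was 12.2-fold higher (3.61 ± 0.20 SE; limma, adjusted p = 0.00231), the one P450 gene called in that direction. Of 7 markers of intestinal and airway epithelium, Epcam, Fabp2 and Foxj1 were well above background on all 4 arrays and Vil1, Muc2 and Scgb1a1 on none. Fabp2 was lower and Foxj1 higher. Epcam read 2.24 and 2.18 in OSK and -0.05 and 1.19 in OSK+Glis1 and was not called. The summed signal, in OSK mostly from Epcam, was 5.21 and 4.91 in OSK and 1.91 and 2.93 in OSK+Glis1. The part of these markers in the Cyp2s1 difference was not tested.

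Cyp1a1, which oxidises polycyclic hydrocarbons and is the standard readout of the aryl hydrocarbon receptor, read -2.04 and -1.98 in OSK and -4.75 and -4.47 in OSK+Glis1. The groups were well apart, and all 4 arrays were well above background. It was 6.06-fold lower (-2.60 ± 0.18 SE; limma, adjusted p = 0.00308). Its relative Cyp1b1, which the same receptor induces and which oxidises oestrogens, read 0.85 and 0.33 in OSK and 0.44 and -0.19 in OSK+Glis1. Those groups overlapped, and the difference of -0.47 did not pass the test (95% interval -1.26 to 0.33; limma, adjusted p = 0.393). Cyp1a2, the liver member, was well above background on no array. Whether Cyp1a1 and Cyp1b1 differ in their response was not tested.

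Of 9 tested genes of the aryl hydrocarbon receptor pathway, 3 were lower and 0 higher, beside 8.17% and 6.06% of all genes. The median difference was -0.26. Aldh3a1, an aldehyde dehydrogenase that the receptor can induce, read 1.70 and 1.78 in OSK and -3.80 and -2.97 in OSK+Glis1, 34.8-fold lower (limma, adjusted p = 0.00252). Arnt2, a relative of the receptor's partner, was 4.74-fold lower (limma, adjusted p = 0.0113). Ahrr, the receptor's repressor and itself a target, read -1.89 and -2.19 against -2.85 and -3.18, and its difference of -0.98 (limma, adjusted p = 0.0481) lost the call in 10 of 15 alternatives, among them each array left out (0.0976 to 0.194). The receptor gene itself, Ahr, read -0.34 and -0.21 in OSK and 0.01 and -0.33 in OSK+Glis1, with overlapping groups and an interval of -0.41 to 0.63. Its partner Arnt differed by -0.03 (-0.54 to 0.47). Among the other genes of the list, Nqo1 differed by -0.71 and Tiparp by -0.26, and neither was called (limma, adjusted p = 0.0613 and 0.409).

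The promoters of Cyp1a1, Cyp1b1, Ahrr and Cyp2s1 are shown because the receptor is known to bind GCGTG in front of several of its targets. They cover the 180 bases before the start (RefSeq, GRCm38.p6), along the gene, with GCGTG, or CACGC where it lies on the opposite strand, in capitals.
Cyp1a1, chr9:57697433-57697612, plus strand: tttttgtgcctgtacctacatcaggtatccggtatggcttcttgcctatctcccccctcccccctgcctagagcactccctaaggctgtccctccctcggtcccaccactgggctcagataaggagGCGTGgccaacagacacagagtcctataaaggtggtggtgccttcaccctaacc
Cyp1b1, chr17:79715062-79715241, minus strand: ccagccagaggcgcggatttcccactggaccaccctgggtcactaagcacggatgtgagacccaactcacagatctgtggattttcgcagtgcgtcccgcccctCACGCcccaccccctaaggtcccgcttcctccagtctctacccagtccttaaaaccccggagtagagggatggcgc
Ahrr, chr13:74292332-74292511, minus strand: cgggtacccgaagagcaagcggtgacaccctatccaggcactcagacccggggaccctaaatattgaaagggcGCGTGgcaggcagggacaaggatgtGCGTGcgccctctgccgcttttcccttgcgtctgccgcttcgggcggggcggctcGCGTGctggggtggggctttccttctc
Cyp2s1, chr7:25816526-25816705, minus strand: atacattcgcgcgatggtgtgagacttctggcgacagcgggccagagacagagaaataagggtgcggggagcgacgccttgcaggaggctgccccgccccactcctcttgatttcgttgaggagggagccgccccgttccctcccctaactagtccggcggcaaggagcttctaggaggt
The word stood at -54 of Cyp1a1, at -76 of Cyp1b1 and at -107, -82 and -27 of Ahrr, and was not in the Cyp2s1 window. It was thus present in front of Cyp1a1, which fell, and of Cyp1b1, which was not called. Receptor sites farther upstream lie outside these windows.

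Cyp3a13, a gut and liver member of the drug-clearing Cyp3a enzymes, read -1.69 and -3.08 in OSK and -5.73 and -4.48 in OSK+Glis1. The groups did not overlap, but each spread over more than 1 log2 unit, and the difference of -2.72 ± 0.62 lay just short of the threshold (limma, adjusted p = 0.0529). It passed without OSK+Glis1 2 (0.0470). Cyp3a11, the main liver Cyp3a enzyme, read -5.72 and -6.31 in OSK, where 1 array was well above background, and -5.35 and -4.69 in OSK+Glis1. Its difference of 1.00 did not pass the test (limma, adjusted p = 0.124).

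The other 7 tested Cyp2 genes of the xenobiotic class all had differences under 0.5 log2 units in size. Cyp2d9 (0.08, 95% interval -0.48 to 0.64) and Cyp2d26 (0.07, -0.37 to 0.51), from the drug-oxidising Cyp2d cluster, were well above background on all 4 arrays. So were Cyp2c70, which makes muricholic bile acids in mice (0.26, -0.36 to 0.88), Cyp2c37 (-0.17, -0.67 to 0.34) and Cyp2b19, a keratinocyte epoxygenase (-0.25, -0.88 to 0.38). Cyp2c40 (0.32) and Cyp2a4 (0.30), the latter a steroid hydroxylase of mouse liver, were admitted by the OSK+Glis1 arrays. Cyp2e1 and Cyp2c29, major liver enzymes, were not tested, the former being well above background on no array. Of 9 measured hepatocyte markers, Alb, Apoa2 and Tat were well above background on all 4 arrays and Afp, Ttr, Apoa1 and Hnf4a on none; Fgb was at least 15.3-fold higher in OSK+Glis1, and the summed signal was 0.654 and 0.489 in OSK and 0.738 and 0.597 in OSK+Glis1. Trophoblast markers were well above background on all 4 arrays for 2 of 6 genes, leukocyte markers for 1 of 6 and endothelial markers for 2 of 6, with Kdr higher in OSK+Glis1. Outside the classes, the orphan Cyp20a1 read 0.47 and 0.47 in OSK and 0.50 and 0.44 in OSK+Glis1, with a difference of 0.00 and an interval of -0.42 to 0.42.

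Receptors for foreign compounds, lipids and bile acids control many Cyp2, Cyp3a, Cyp4a and Cyp7 genes. Of 11 tested, 3 were lower and 0 higher, beside 8.17% and 6.06% of all genes. With median centring or the deposited log2 values, 3 were lower and 2 higher. Nr1h3, the oxysterol receptor LXR alpha, was lower by -1.83, Nr1h4, the bile acid receptor FXR, by -1.80, and Rxrg, a shared partner of these receptors, by -1.68 (limma, adjusted p = 0.0122, 0.0294 and 0.0170). With 1 array left out the count was 2 without OSK 2 and 1 without any of the others. Of 10 genes for electron donors of P450 enzymes and proteins that bind them, 1 was higher and 0 lower, beside 6.06% and 8.17% of all genes. Por, the reductase that serves all P450 enzymes of the endoplasmic reticulum, read 3.50 and 4.02 in OSK and 4.03 and 4.003 in OSK+Glis1, with overlapping groups and an interval of -0.35 to 0.86. The gene that rose, Pgrmc2, a haem-binding membrane protein, did so by 0.88 (limma, adjusted p = 0.0349), a call lost with any of the 4 arrays left out (0.104 to 0.174). Of 12 tested genes of haem synthesis and breakdown, 0 were higher and 0 lower by limma, with 3 at an unadjusted p under 0.05. The nearest was Cpox (0.79, limma adjusted p = 0.0911), which was called higher with median centring or the deposited log2 values.

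P450 proteins also carry other names. Ptgis, the prostacyclin synthase, read -4.67 and -4.88 in OSK and -2.28 and -3.08 in OSK+Glis1, 4.28-fold higher (limma, adjusted p = 0.0159), with the call lost without OSK 1 (0.0837) and without OSK 2 (0.104). Tbxas1, the thromboxane synthase, differed by -1.01 and Cyp51, the demethylase of cholesterol synthesis, by -0.52, and neither passed the test (limma, adjusted p = 0.0732 and 0.113). Of the 101 tested genes of all 9 lists, 18 were lower and 6 higher, beside 8.17% and 6.06% of all genes. Genes of these lists, with Ptgis, Tbxas1 and Cyp51 included, are called partner genes below.

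**Figure D4:**
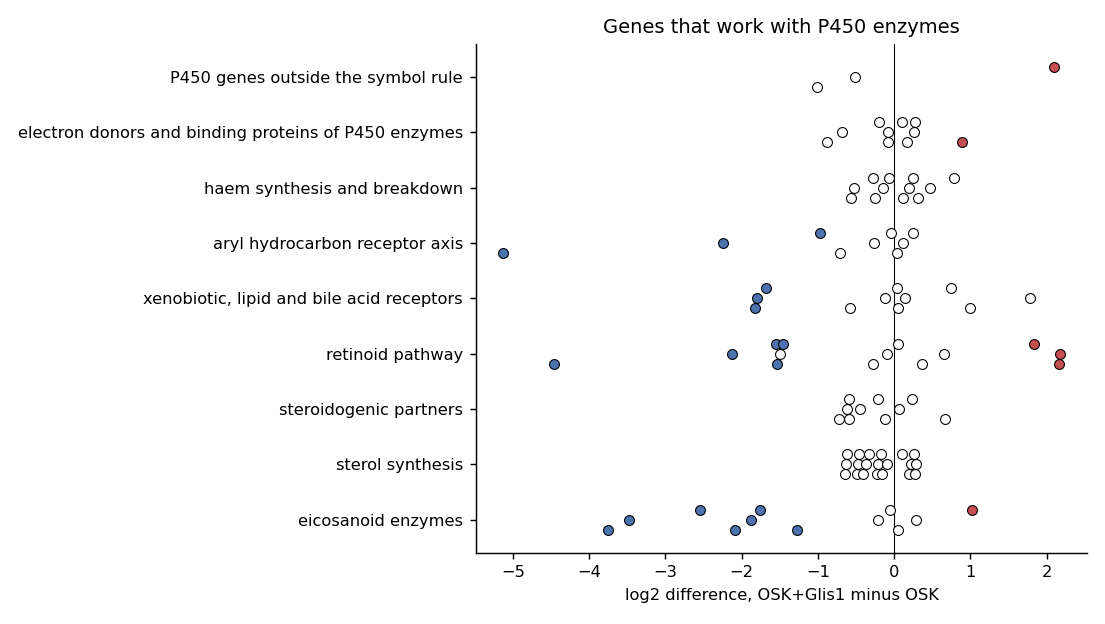
Log2 difference, OSK+Glis1 minus OSK (n = 2 arrays per group), of each tested gene in 9 lists. The lists hold genes that work beside P450 enzymes or code for P450 enzymes under other names. Each point is a gene, blue where it was called lower, red where it was called higher and white otherwise; 7 of 12 eicosanoid enzymes are blue, and the lists of haem, steroidogenic partner and sterol synthesis genes hold no coloured point.

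Under plain normexp background correction none of the 19174 genes passed limma's test, 0 higher and 0 lower, although 1410 had an unadjusted p under 0.05, so no P450 call held there. Normexp adds an offset of 50 to every signal here. With local backgrounds that the scanner software marked as outliers replaced by the array's median, the 9 P450 calls returned, but the following differences were smaller than those given above. The difference was -1.48 for Cyp1a1, -0.91 for Cyp2j11 and -1.49 for Cyp2j13; in the scaling used above the mean over the 2 Cyp2j13 probes that could be tested differed by -3.57. With replaced backgrounds the difference among partner genes was -3.48 for Aldh1a3, -4.20 for Aldh3a1, -1.36 for Arnt2, -0.90 for Nr1h4, 1.02 for Ptgis and -2.67 for Ptgs2. Apart from plain normexp, the calls of Cyp11a1, Cyp2s1, Cyp1a1, Cyp2j6, Cyp2j11, Cyp2j13 and Cyp4f39 held in every alternative that could test them, including each array left out.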

How the data were processed

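The deposited scanner files hold 43379 non-control spots per array. Per the file headers the authors obtained the deposited intensity of each spot, already background-corrected, with Agilent Feature Extraction 10.7.3.1. This signal was divided by the array's 75th percentile and taken to log2. Outlier spots were left out, spots of 1 probe averaged and the brightest probe on average used for each gene. A probe entered the test if it was well above background on each array of 1 or both groups; the test used limma 3.58.1 in R 4.3.3 (lmFit, eBayes, two-sided), with Benjamini-Hochberg adjustment over 19174 genes; 2 arrays per group limit the precision. Accessions matched 26925 of 41174 probes to 1 RefSeq symbol (GRCm38.p6). The design of the arrays used an older build, so gene order, promoter sequences and their coordinates are RefSeq's. Normexp used median signals, since the files used here give no mean signal. The authors' deposited log2 values equal the scanner log2 signal minus a constant per array for 99.8% to 99.9% of probes (within 0.01), with column medians of 0.00298, 0.00416, 0.0152 and 0.0119; no source used here names the tool that centred them.

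The members, classes and gene lists were chosen with earlier results of these data known. Named were all called members, all members well above background on all 4 arrays, the members nearest the threshold, and up to 4 called genes of each list or, failing these, the one nearest the threshold; further genes were named after their values were seen, and 1 gene that the rule names is not reported here. Alternatives changed the background, scaling, filter, probe rule, variance prior, replicate block and the arrays included. The fit was tested on simulated data.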

Additional observations from a re-analysis of the deposited data

How the results depend on the processing

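The calls of Cyp2s1, Cyp11a1, Cyp1a1, Cyp2j6, Cyp2j11, Cyp2j13 and Cyp4f39 were lost under plain normexp background correction alone, of 15 alternatives, or 14 for Cyp11a1, Cyp2j11 and Cyp4f39, which could not be tested where all 4 arrays had to be well above background. Under that setting 0 genes were higher and 0 lower, with 0 and 0 members, and 0 and 0 partner genes, and Ptgis had a difference of -0.28 against 2.10; with flagged local backgrounds replaced, 1257 genes were higher and 1759 lower, with 1 and 11 members. The cause was not tested. Without a filter on dim probes 554 genes were higher and 950 lower among 32172, with 3 and 10 partner genes. With 1 array left out, 449 to 787 genes were higher and 664 to 1093 lower, 1 member was higher and 6 to 8 lower, and 3 to 4 partner genes were higher and 9 to 12 lower. Centring on the median gave 1586 genes higher and 1404 lower, against 1161 and 1566, and the deposited log2 values gave 1645 and 1377, with 10 partner genes higher under both; the median difference over all genes moved from 0.05 to 0.19 and 0.21. Members counted 1 higher and 9 lower under both. The replicate block gave 1112 genes higher and 1543 lower, and 1 member higher and 10 lower, but deviations of same-numbered arrays correlated at 0.009, so the numbers were not taken to pair the samples. Cyp7b1 and Cyp26b1 lost their calls in 5 of 15 alternatives each, and Cyp3a13 gained one in 6, Cyp2j9 in 5 and Cyp26a1 in 2 of 14. No called member changed sign, whereas 14 of the 24 uncalled members did in at least 1 alternative. Signal over background limited what could be seen, since 47 members were not tested.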
